A study of Saccharomyces cerevisiae with 4 samples.

Results

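This report describes 5 yeast genes, ERG25, LSM4, RPN4, DRS2 and PAN1, at which the transcription factor Cbf1 gave some of its strongest peaks outside sulfur metabolism. The peaks described are those that overlap the 1000 bp upstream of the 5 gene starts in the annotation of the R64 genome build, 20 of the 6744 peaks in the 4 deposited lists. The genes were chosen by their high Cbf1 fold enrichment in both Cbf1 lists, so their Cbf1 fold is given as a description with no test. Of the 20 peaks, 5 lay in the list of Cbf1 replicate 2 and 7 in that of replicate 1, and 4 lay in each Pho4 list.

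The series mapped Cbf1 and a second factor, Pho4, in Saccharomyces cerevisiae with 2 ChIP-nexus libraries of each. In ChIP-nexus an exonuclease trims immunoprecipitated DNA back to the crosslinked protein, so that the ends of reads mark its place. The Pho4 libraries came from W303 strain Z1441 with the allele PHO4::9myc::TRP1 and the Cbf1 libraries from W303 strain Z1497 with CBF1::9myc::TRP1, so each factor carried 9 copies of the Myc epitope and was precipitated with the antibody ab9E10 (abcam). Cells of both strains were grown in rich glucose medium at 25 °C, spent 2 h in medium without phosphate and were fixed with 1% formaldehyde for 15 min, per the labels, which attach this text to all 4 libraries. No phosphate-replete, untagged or input library was used here, and nothing in the labels says whether the replicates were separate cultures.

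Cbf1 and Pho4 are basic helix-loop-helix proteins that bind as dimers to the E-box CACGTG. Cbf1 is best known for its place at centromeres and at genes of methionine and sulfate metabolism, and Pho4 for switching on phosphate genes when phosphate runs out. Both proteins read the bases beside the core as well, and T directly 5′ of the core is known to favour Cbf1 and to disfavour Pho4. The core is a palindrome, so a site can carry this T on neither strand, on 1 strand or on both. None of the 5 genes is an enzyme of sulfur or phosphate metabolism. ERG25 encodes a sterol C-4 methyl oxidase of ergosterol synthesis, and LSM4 encodes a subunit of the Lsm rings that act in mRNA decay and splicing. RPN4 encodes the transcription factor that drives proteasome genes, DRS2 a phospholipid flippase of the Golgi, and PAN1 a scaffold and actin regulator of endocytic patches.

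The sequences under the strongest Cbf1 peaks are shown because the kind of site varies among the 5 genes, although RPN4 and DRS2 share the same form. They are read from the plus strand of R64, W303 may differ from it at single bases, and capitals mark the E-box or, at PAN1, the nearest E-box with 1 base changed.
ERG25, chrVII:609884-609964: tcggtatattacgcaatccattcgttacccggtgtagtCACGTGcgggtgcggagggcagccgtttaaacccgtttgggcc
LSM4, chrV:386963-387043: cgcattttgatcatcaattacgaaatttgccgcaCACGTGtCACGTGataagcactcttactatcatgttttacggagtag
RPN4, chrIV:417052-417132: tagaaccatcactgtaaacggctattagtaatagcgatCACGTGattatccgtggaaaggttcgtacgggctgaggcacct
DRS2, chrI:99839-99919: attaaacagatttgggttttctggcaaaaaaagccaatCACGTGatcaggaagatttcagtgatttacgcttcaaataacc
PAN1, chrIX:370031-370142: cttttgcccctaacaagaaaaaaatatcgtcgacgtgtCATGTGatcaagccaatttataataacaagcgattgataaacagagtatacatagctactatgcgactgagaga

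The windows differ in the kind of site they hold. At ERG25 the core has a T flank on 1 strand. At RPN4 and DRS2 it has a T flank on both strands and reads ATCACGTGAT, a palindrome 4 bases longer than the core. At LSM4 a core with no T flank stands 1 base before a core with T flanks on both strands. At PAN1 there was no CACGTG within 500 bp of either Cbf1 summit, and the closest form with 1 base changed, CATGTG with T flanks on both strands, had its centre 47.5 and 50.5 bp from the summits of replicates 1 and 2. The annotation places none of the CACGTG sites inside a gene.

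The 4 lists end at different places, and values are from the nuclear sequence covered by every list. It spans 8 chromosomes, with chromosome VII up to position 856779, and makes up 41.7% of the nuclear genome. The Pho4 lists had 1105 and 941 peaks there, with median fold of 3.09 and 3.43. The Cbf1 lists had 920 and 853, with median fold of 2.18 and 2.80. The fold is the authors' own value for a peak, the height of its summit over its local background, and ranks are within 1 list. The lists carry no read totals. The summit height in reads was recovered from each fold and p, and its median was 73 and 43 reads for Pho4 and 65 and 51 for Cbf1. Intervals on fold are 95% exact Poisson intervals of the summit height and cover counting error only. Libraries of a factor differ in scale, and Cbf1 replicate 2 gave the higher fold than replicate 1 at all 5 genes.

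ERG25 held the highest Cbf1 peak of the compared region in both lists, and Pho4 was high there too. ERG25 (YGR060W) lies on the plus strand of chromosome VII at 610564 to 611493. Its Cbf1 fold was 18.0 in replicate 1 and 28.6 in replicate 2, rank 1 of 920 and rank 1 of 853, from summits 1620 and 1968 reads high. Its Pho4 fold was 13.5 (interval 12.2 to 14.8) and 15.6 (13.8 to 17.5), rank 62 of 1105 and rank 50 of 941, from summits of 427 and 290 reads. Both Pho4 values lay over 4 times their list's median, at 4.36 and 4.54 times. The Pho4 values stand below both Cbf1 values, although fold is scaled within each library and its size cannot be set across libraries.

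The Cbf1 summits lay 659 and 634 bp upstream of ERG25 and the Pho4 summits 663 and 650 bp upstream. The nearest gene on that side is SNR48, a small nucleolar RNA gene on the same strand, whose body ended 234 bp before the Cbf1 replicate 2 summit and lay under the shoulder of both Cbf1 intervals. No protein-coding gene diverged from ERG25 across the peak. Cbf1 replicate 1 alone listed a second, weak peak at the start of ERG25, with a fold of 1.73 and rank 849.

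At LSM4 Cbf1 ranked near the top and Pho4 gave a moderate peak. LSM4 (YER112W) lies on the plus strand of chromosome V at 387232 to 387795. Its Cbf1 fold was 14.1 and 28.4, rank 4 and rank 2, from summits of 1002 and 1547 reads. Its highest Pho4 peak had a fold of 5.39 (interval 4.37 to 6.57) and 6.7995 (5.18 to 8.77), rank 246 and rank 185, from summits of 95 and 57 reads. The counting intervals of the Pho4 replicates overlap, and both lie above their list's median.

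Both Cbf1 summits at LSM4 fell on the same base, 228 bp upstream of the gene and 2.5 bp from the centre of the core with T flanks on both strands. That base also lay 4.5 bp from the centre of the neighbouring core with no T flank, so the Cbf1 peak cannot be assigned to either core. The Pho4 summits lay 261 and 212 bp upstream, 1 on each side of the paired cores. The pair of CACGTG cores with a single T between them, searched on both strands, occurred at no other place in the compared region and in 0.0399% of the 2504 windows of 1000 bp upstream of protein-coding genes. The divergent neighbour is SWI4 (YER111C), which encodes the DNA-binding part of a factor that drives G1/S transcription and starts 1128 bp from the Cbf1 summits. Each Pho4 list held a second peak in this intergenic stretch, 435 and 459 bp upstream of SWI4, with a fold of 4.85 and 4.71. No CACGTG lay within 500 bp of those summits, and neither Cbf1 list had a summit there. The Cbf1 replicate 1 interval covered both places but is listed with a single summit, so Cbf1 signal there could not be listed apart. The replicate 2 interval did not reach them.

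RPN4 showed the widest contrast among the genes at which both factors were called. RPN4 (YDL020C) lies on the minus strand of chromosome IV at 415113 to 416708. Its Cbf1 fold was 13.7 and 26.6, rank 6 and rank 3, from summits of 1178 and 1758 reads. Its Pho4 fold was 2.72 (interval 2.13 to 3.43) and 2.67 (1.89 to 3.67), rank 672 of 1105 and rank 710 of 941, from summits of 70 and 36 reads. Both Pho4 values lay below their list's median, at 0.881 and 0.780 times, although the median lies inside each interval.

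The Pho4 summits at RPN4 coincided to the base, 376 bp upstream of the gene, and the Cbf1 summits lay 395 and 396 bp upstream. The core lay between them, 8.5 bp from the Pho4 summits and 10.5 and 11.5 bp from the Cbf1 summits. The gene on the far side, OSH2, runs in the same direction and has its 3′ end 559 bp from the Cbf1 replicate 2 summit, so no gene diverges from RPN4 across this peak.

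DRS2 and PAN1 had strong Cbf1 peaks and no Pho4 peak in either list. DRS2 (YAL026C) lies on the minus strand of chromosome I at 95630 to 99697. Its Cbf1 fold was 10.1 and 20.3, rank 20 in both lists, from summits of 623 and 852 reads that lay 1.5 and 0.5 bp from the centre of its core. The nearest edge of any Pho4 peak was 6720 and 6748 bp away in Pho4 replicates 1 and 2. The summits stood 184 and 182 bp upstream of DRS2 and just past the 3′ end of HRA1, a noncoding RNA gene that runs against DRS2 and ends 11 bp from the replicate 2 summit. MAK16, a ribosome biogenesis gene, runs in the same direction as DRS2 and has its 3′ end 346 bp from that summit, so no protein-coding gene diverges from DRS2 across the peak.

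The DRS2 upstream stretch also holds a second CACGTG, shown because its flanks differ from those of the first.
DRS2 second site, chrI:100137-100172: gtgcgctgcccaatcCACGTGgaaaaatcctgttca
This core has a T flank on neither strand. Its centre lay 273.5 and 275.5 bp from the Cbf1 summits, inside both Cbf1 intervals. No summit of either factor was listed at this core. Each of these Cbf1 intervals is listed with a single summit, so Cbf1 signal at this core could not be listed apart. Among all 399 CACGTG sites of the region, 48.6% had a Pho4 summit within 50 bp in both lists. Cbf1 replicate 1 listed a further weak peak upstream of DRS2, with a fold of 1.48 and rank 913 of 920.

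PAN1 (YIR006C) lies on the minus strand of chromosome IX at 365466 to 369908. Its Cbf1 fold was 10.5 and 23.5, rank 18 and rank 10, from summits of 635 and 1121 reads, 211 and 214 bp upstream of the gene. The nearest edge of a Pho4 peak was 3824 and 3927 bp away. The divergent neighbour is EGH1 (YIR007W), a steryl glucosidase gene that starts 582 bp from the Cbf1 replicate 2 summit, and a tRNA gene lies between them, 295 bp from that summit. The tRNA gene lay within the Cbf1 replicate 1 interval and met the end of the replicate 2 interval, and its part in the peak was not tested. The weakest peaks of the Pho4 lists had a fold of 1.44 and 1.84, but these values are not the limit at DRS2 or PAN1. The lowest fold that could be called there depends on the local Pho4 background, which is known only at called peaks. A Pho4 enrichment that missed the call would not be seen, and its possible size is not known.

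**Figure D1:**
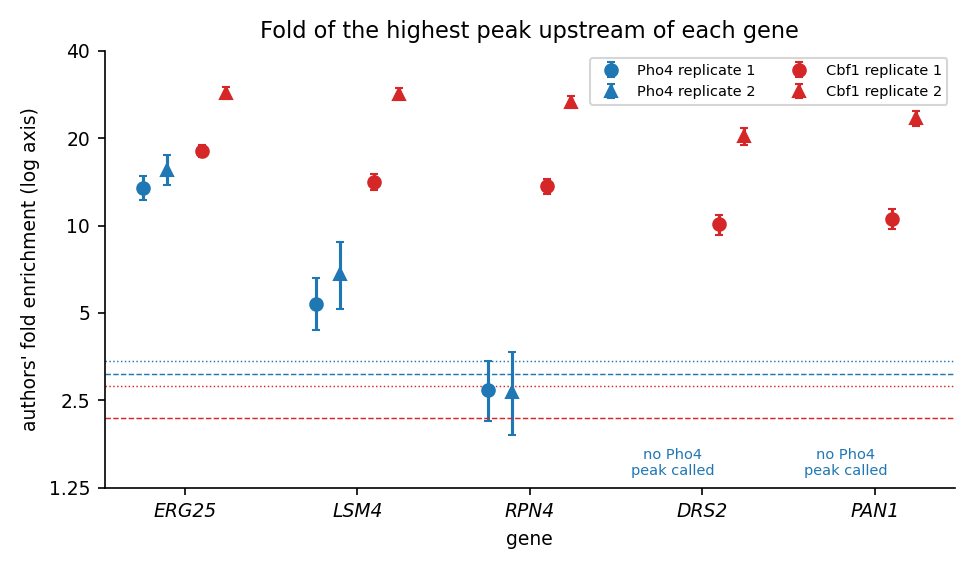
Authors' fold enrichment (log axis) of the highest peak upstream of each gene in the 4 libraries, with 95% Poisson intervals of the summit height as bars and each list's median fold as a dashed (replicate 1) or dotted (replicate 2) line in the colour of its factor. Cbf1 lies between 10.1 and 28.6 at all 5 genes, while Pho4 runs from 13.5 and 15.6 at ERG25 down to 2.72 and 2.67 at RPN4, with no peak called at DRS2 and PAN1.

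Across the 5 genes the order by Pho4 fold was ERG25, LSM4, RPN4 in both Pho4 lists, and the counting intervals of these neighbours did not overlap within a list. The Cbf1 folds of LSM4 and RPN4 overlapped in their counting intervals in both lists, so these 2 are not ordered. ERG25 stood apart from both in replicate 1, at 17.2 to 18.9, but its interval of 27.4 to 29.9 in replicate 2 overlapped those of LSM4, at 27.0 to 29.9, and RPN4, at 25.4 to 27.9. DRS2 and PAN1 overlapped in replicate 1, at 9.31 to 10.9 and 9.73 to 11.4, and not in replicate 2, at 19.0 to 21.7 and 22.1 to 24.9. With a gene at 0 where no peak was called, the mean Pho4 fold percentile of the 5 genes was 42.3 and 39.98 in replicates 1 and 2. For Cbf1 it was 99.0 and 99.3, which the choice of genes fixes.

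A Pho4 peak in both lists was thus found at 3 of the 5 genes. Among the 2504 protein-coding genes of the region, 33.6% had a Pho4 peak in the 1000 bp upstream in both lists and 24.1% had a Cbf1 peak in both. Among the 604 genes with a Cbf1 peak in both lists, 71% had a Pho4 peak in both as well. Read by peaks, 54.1% of the 625 Cbf1 peaks found in both lists overlapped a Pho4 peak in both. These 625 are peaks of replicate 2 that overlap a replicate 1 peak, and a wide replicate 1 peak can be matched to several of them. Of the 16 that ranked at least as high as DRS2 by mean Cbf1 percentile, the 5 genes included, 81.2% did so. Overlap at 3 of 5 genes is too few to set apart from any of these shares. Over the 338 Cbf1 peaks shared with Pho4, the log2 fold of the factors correlated with a Pearson r of 0.255 and a Spearman rho of 0.263. This is a description across peaks, which share libraries and local base composition.

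**Figure D2:**
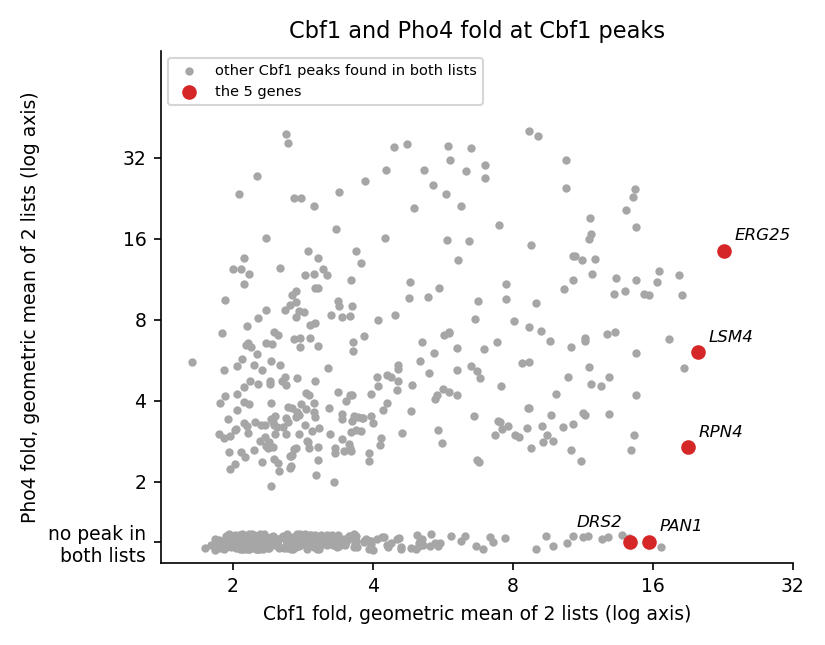
Cbf1 fold against Pho4 fold, each the geometric mean of 2 lists on a log axis, at the 625 Cbf1 peaks found in both lists; the bottom row, spread vertically for legibility except for the 5 genes, holds peaks without a Pho4 peak in both lists. The 5 genes lie at the right edge because they were chosen there. They range from ERG25 down to DRS2 and PAN1 in the bottom row, and other Cbf1 peaks lie above ERG25.

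Flanking bases were then set beside these values, since the rule did not use sequence. A CACGTG site lay within 50 bp of the Cbf1 replicate 2 summit at 4 of the 5 genes, all but PAN1. This held for 24.8% of the 625 Cbf1 peaks and for 87.5% of the 16 highest. A core with T flanks on both strands reads TCACGTGA, and the region holds 47 such places. Cbf1 summits lay within 50 bp of 59.6% of these sites in both lists, and Pho4 summits within 50 bp of 12.8%, or 6 sites. LSM4 and RPN4 are 2 of these 6. At LSM4 the Pho4 summits of replicates 1 and 2 lay 35.5 and 13.5 bp from this core. They lay 28.5 and 20.5 bp from the neighbouring core with no T flank, so the peak cannot be assigned to either core. By Cbf1 replicate 2 fold the LSM4 site ranked 1, the RPN4 site 2 and the DRS2 site 7 of the 47. These places follow from the choice of the genes by Cbf1 fold and are no result about the sites. The LSM4, RPN4 and DRS2 sites are also counted in the 59.6%. The longer palindrome ATCACGTGAT of RPN4 and DRS2 occurred at 10 places, with a Cbf1 summit in both lists at 8 and a Pho4 summit in both lists at 2. RPN4 and DRS2 are among the 8, where their Cbf1 peaks follow from the choice of the genes, and RPN4 is 1 of the 2. Over all 399 CACGTG sites, 33.6% had a Cbf1 summit in both lists and 48.6% a Pho4 summit in both lists.

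The form at ERG25, GTCACGTG searched on both strands, occurred at 69 places and in 2.56% of the 2504 upstream windows. Counting ERG25 and LSM4, Cbf1 summits in both lists lay near 69.6% of these places and Pho4 summits near 44.9%. The ERG25 site had the highest fold among them for both factors in all 4 lists, which for Cbf1 follows from the choice of the gene. GTCACGTG also contains the second LSM4 core, so these forms overlap. TCACGTGA was found in 1.92% of upstream windows and CACGTG in 10.6%. At PAN1, TCATGTGA was 1 of 119 such places, of which 8.40% had a Cbf1 summit within 50 bp in both lists and 1.68% a Pho4 summit. PAN1 is not among those, because its replicate 2 summit lay 50.5 bp away. TCATGTGA stood in 2.40% of upstream windows, and a match is no evidence that a protein binds it.

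**Figure D3:**
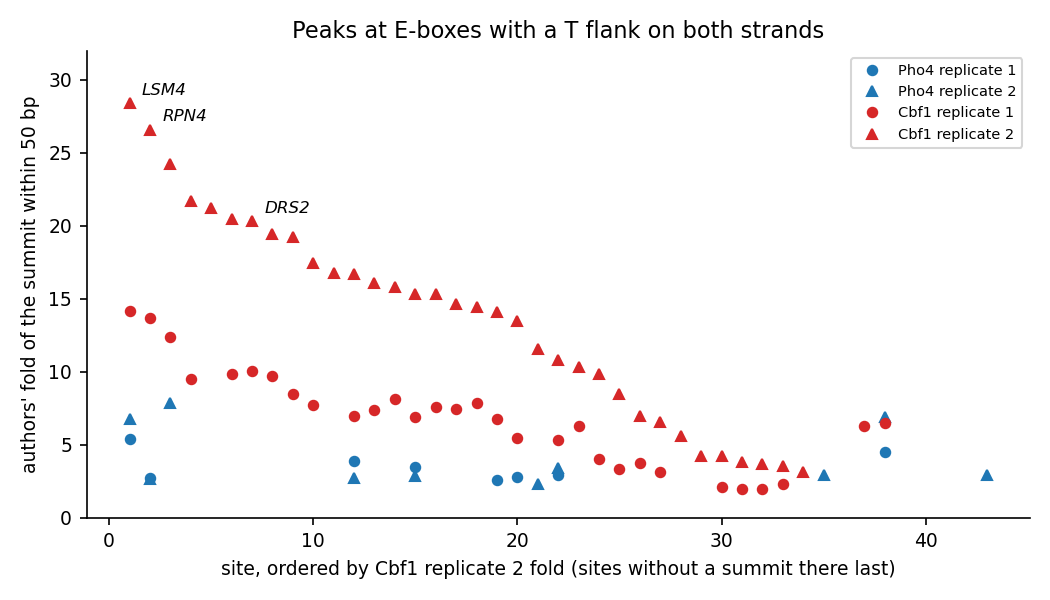
Authors' fold of the summit within 50 bp at the 47 E-boxes that have a T flank on both strands, ordered by Cbf1 replicate 2 fold, in all 4 libraries; a site without a point had no summit in that library. LSM4 and RPN4 hold the first and second places at 28.4 and 26.6, and DRS2 the seventh at 20.3. The choice of the genes by Cbf1 fold puts them there. Few sites carry a Pho4 point, the highest at 7.89.

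The Cbf1 summits of the replicates lay close together at LSM4, RPN4, DRS2 and PAN1, and farther apart at ERG25. They lay 25 bp apart at ERG25, 0 bp at LSM4, 1 bp at RPN4, 2 bp at DRS2 and 3 bp at PAN1. The median over all 625 Cbf1 peaks found in both lists was 47 bp, and over the 16 highest, the 5 genes included, it was 5.5 bp. Some of the 625 share a wide replicate 1 peak, whose summit need not match theirs, so the 47 bp may be too large. Close agreement was thus also found among the 16 highest and is not particular to these genes. The Pho4 summits lay 13 bp apart at ERG25, 49 bp at LSM4 and 0 bp at RPN4.

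At the 3 genes with peaks of both factors, summits were compared between factors. The mean distance from summit to nearest core was 20.2 and 10.8 bp in the Pho4 libraries and 10.8 and 6.5 bp in the Cbf1 libraries. The factor means were 15.5 ± 6.60 bp (SD, n = 2) and 8.67 ± 3.06 bp (SD, n = 2), and their difference of -6.83 bp was close to the SD of the Pho4 libraries, with a two-sided exact permutation p of 0.67. Single libraries decide its size, which ran from -11.5 bp without Pho4 replicate 2 to -2.17 bp without Pho4 replicate 1. Summits of different factors lay 19.5 bp apart on average over these genes, against 20.7 bp between the Pho4 replicates and 8.67 bp between the Cbf1 replicates. The excess of 4.83 bp (two-sided exact permutation p 0.33) lies within the spread of the 2 same-factor values, and it reversed to -4 bp without Cbf1 replicate 2 and fell to 1.67 bp without Cbf1 replicate 1. The smallest two-sided exact permutation p that 2 libraries against 2 allow is 0.33, and since the labels do not say that replicates came from separate cultures, these p-values measure only the spread between these samples, which may be technical.

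**Figure D4:**
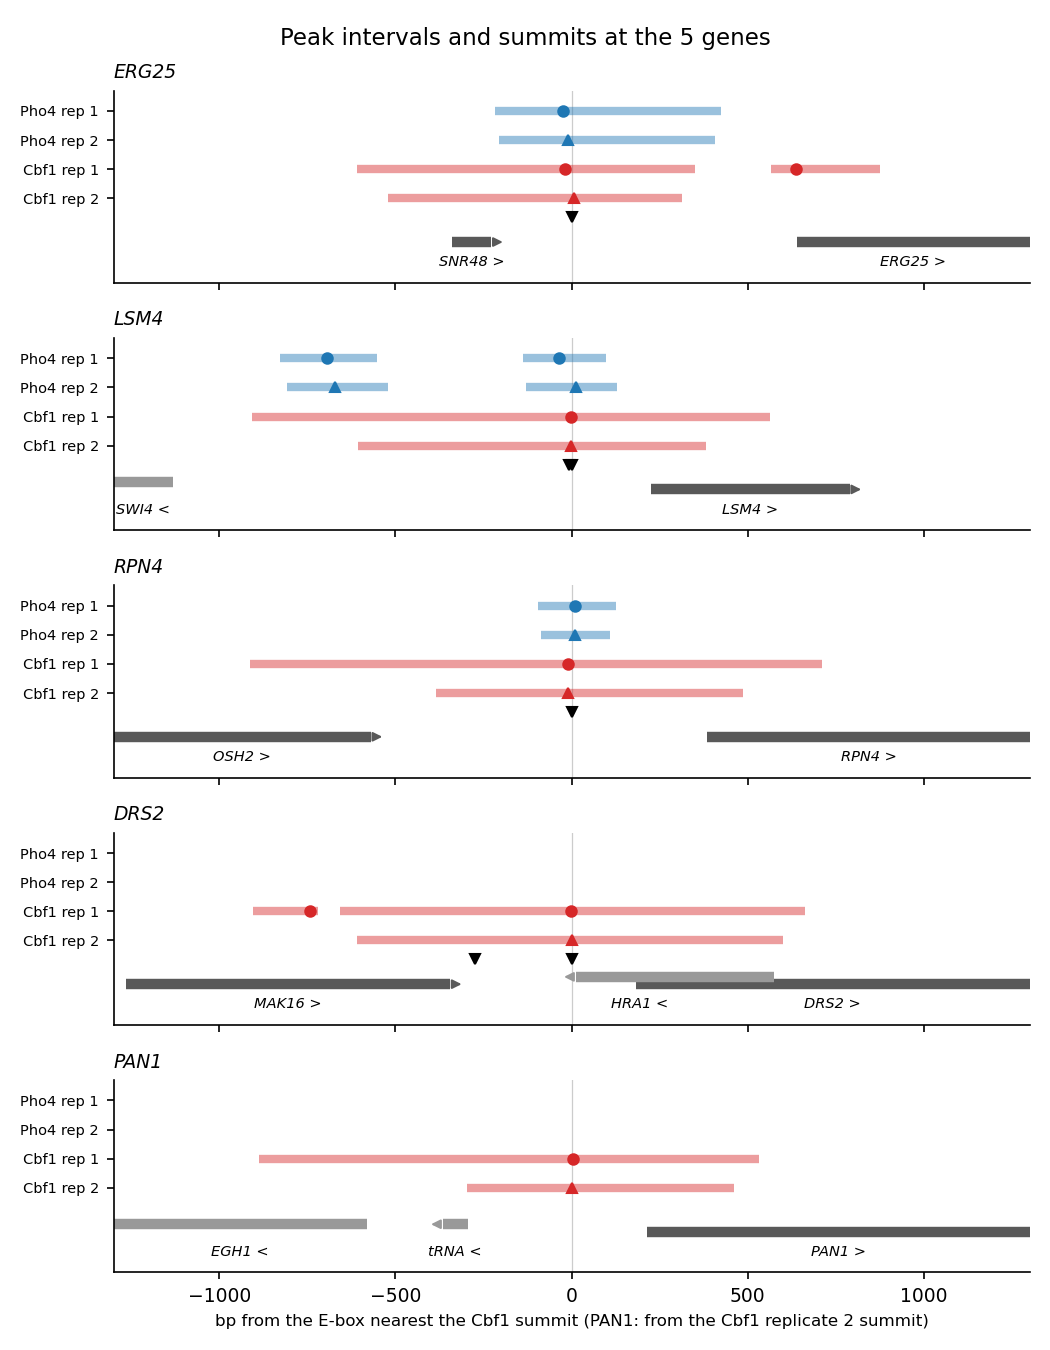
Peak intervals (bars) and summits (circles for replicate 1, triangles for replicate 2) of the 4 libraries at each gene, with black marks for CACGTG cores and grey bars for annotated genes, darker where they run with the named gene and lighter where they run against it. Distance in bp is from the core nearest the Cbf1 replicate 2 summit, or at PAN1 from that summit, and each gene reads to the right. Cbf1 intervals reach far to each side of their summits, while the Pho4 intervals at LSM4 and RPN4 span 197 to 286 bp.

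Cbf1 intervals were wider than Pho4 intervals at the same genes, by less at ERG25 than at LSM4 and RPN4. At ERG25 the Pho4 intervals spanned 642 and 616 bp, while those of Cbf1 spanned 960 and 837 bp. The Pho4 peaks at the LSM4 cores spanned 238 and 260 bp, under Cbf1 intervals of 1473 and 988 bp. RPN4 had Pho4 intervals of 223 and 197 bp beside Cbf1 intervals of 1625 and 873 bp. Averaged over these 3 genes, widths came to 363 ± 7.07 bp (SD, n = 2) for Pho4 and 1126 ± 321 bp (SD, n = 2) for Cbf1. The difference of 763 bp was larger than either SD, with a two-sided exact permutation p of 0.33, and both Cbf1 values lay above both Pho4 values. Without Cbf1 replicate 1 the difference was 537 bp and without Cbf1 replicate 2 it was 990 bp. Width follows fold within a list, with a Spearman rho of 0.653 and 0.701 over the peaks of the Cbf1 lists, and the genes were chosen for high Cbf1 fold. The 2 genes without a Pho4 peak had Cbf1 widths of 1321 and 1208 bp at DRS2 and 1420 and 758 bp at PAN1.

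Genes of related function were listed for each of the 5 by known role and not by their values, and the 5 genes themselves were left out of the counts. A Cbf1 peak in both lists was found upstream of 13 of 41 such genes in the region, or 31.7%, against 24.1% of all genes. A Pho4 peak in both lists was found at 12 of the 41, or 29.3%, against 33.6% of all genes. The median of mean Cbf1 percentile was 6.62 over the 41 genes and 0 over all genes, where 0 stands for no peak. No test of these shares was made. Of the 9 genes in the region on a list of sulfur genes, which is not complete and lacks the methionine synthesis genes MET6 and MET13, 6 had a Cbf1 peak in both lists and 8 a Pho4 peak in both.

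Among 5 sterol genes, 2 had a Cbf1 peak in both lists. ERG26, a sterol C-3 dehydrogenase that acts in the same C-4 demethylation step as ERG25, had a Cbf1 fold of 5.02 and 7.66 and no Pho4 peak. ERG4, which acts last in the pathway, had a Cbf1 fold of 2.07 and 2.52 and a Pho4 fold of 2.74 and 2.95. Of 4 Lsm genes, LSM5 had a Cbf1 fold of 2.26 and 3.30 beside a Pho4 fold of 8.53 and 7.90, and LSM6 had a Cbf1 fold of 1.91 and 2.73.

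Of 18 proteasome genes 6 had a Cbf1 peak in both lists. PUP3, a subunit of the 20S core, had a Cbf1 fold of 8.67 and 19.1 and a Pho4 fold of 4.27 and 5.66. RPN6, a subunit of the lid, had a Cbf1 fold of 2.61 and 4.25 and a Pho4 fold of 17.1 and 17.6. PRE1, another core subunit, followed with a Cbf1 fold of 2.91 and 3.55 and a Pho4 fold of 5.01 and 2.83. RPT6, RPN3 and RPT2 were the others. Of 4 flippase genes, DNF1 had a Cbf1 fold of 2.04 and 2.098. Of 10 endocytic patch genes, ABP1, an actin-binding protein of the patch, had a Cbf1 fold of 8.07 and 16.3 and a Pho4 fold of 7.18 and 6.17. SYP1, an early endocytic adaptor, had a Cbf1 fold of 2.79 and 3.34 and no Pho4 peak within its 1000 bp, although the Cbf1 peaks extend beyond that window and overlap Pho4 peaks there with a fold of 6.74 and 6.04.

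**Figure D5:**
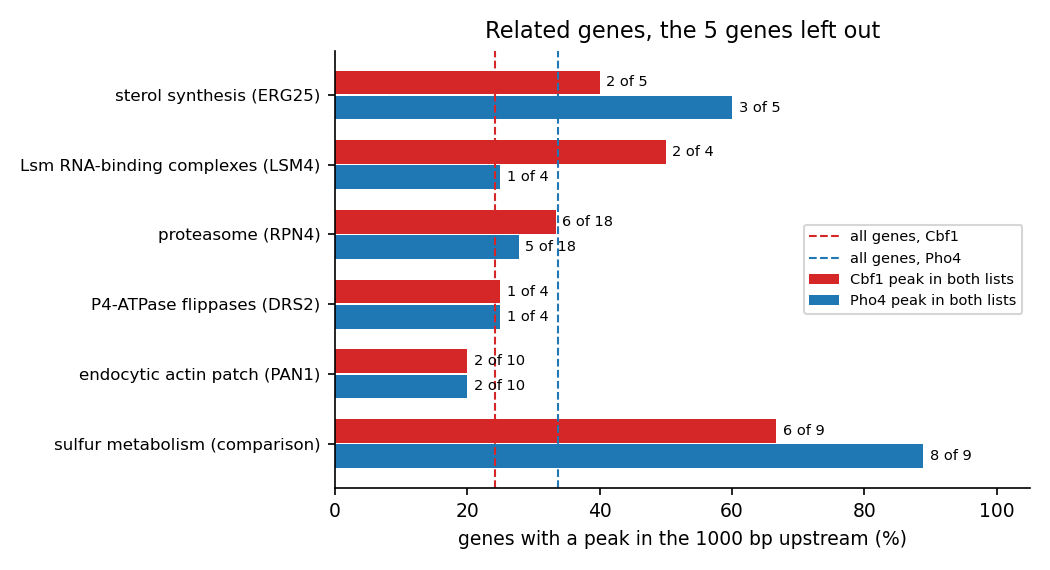
Share of the genes of each list, the 5 genes left out, with a Cbf1 (red) or Pho4 (blue) peak in the 1000 bp upstream in both lists, with counts beside the bars and the share over all 2504 genes as dashed lines. The 5 functional lists lie on either side of the dashed lines, and the sulfur list, which lacks MET6 and MET13, lies above them with 6 of 9 and 8 of 9 genes.

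The genes of the sulfur list with a Cbf1 peak in both lists were MET28, MET30, CYS3, MET32, MET10 and MUP1. The highest of these 6 by mean Cbf1 percentile was MET28, a transcriptional activator of the sulfur genes that works with Cbf1, with a Cbf1 fold of 8.69 and 19.0 and a Pho4 fold of 3.64 and 3.52. MET30, a ubiquitin ligase subunit that restrains the sulfur genes, had a Cbf1 fold of 9.00 and 15.98 and a Pho4 fold of 11.8 and 15.2. CYS3, a cystathionine gamma-lyase, had a Cbf1 fold of 6.96 and 16.7 and a Pho4 fold of 3.90 and 2.74. MET6 and MET13, named here after their values were seen, were higher than any gene of that list. MET6, which encodes methionine synthase and shares its peak with IES5, had a Cbf1 fold of 12.4 and 24.3, above PAN1 and DRS2 in both lists and below ERG25, LSM4 and RPN4. MET13, a methylenetetrahydrofolate reductase gene, had 10.5 and 20.0, above DRS2 in replicate 1 and below it in replicate 2. Their Pho4 fold was 5.89 and 7.89 at MET6 and 24.7 and 21.1 at MET13. The 5 genes described here thus do not all outrank the sulfur genes of the region. Sulfur genes beyond the compared region were not analysed here.

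Genes with the most similar pattern were found by the distance between their 4 fold percentiles and the mean of the 5 genes, over 4 libraries. The nearest were YDL241W, SMX2 (sharing its peaks with LPD1), TRM3 (with ATG20), CAB1 (with APA2) and RIM15, at distances of 12.4, 12.7, 12.8, 13.0 and 16.4 percentile points. The nearest, YDL241W, had a Cbf1 fold of 6.10 and 11.1 and a Pho4 fold of 2.75 and 3.16. Pho4 fold at the 5 nearest genes lay between 2.59 and 3.30, close to RPN4, since the mean they were matched to combines genes with and without a Pho4 peak.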

How the data were processed

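The authors deposited 1 peak list per library in narrowPeak layout, so replicates were not pooled. Per the submitters' processing notes, the build was sacCer3 and the tools included cutadapt 1.8.1, Bowtie 1.1.2, SAMtools 1.3.1, bedtools and MACS2 2.1.1; what each was set to, and the cut-offs for a peak, are not given in the sources used here. Of the columns deposited, those used were the fold ratio of summit over local background, −log10 p and −log10 q. The deposited score was not used to rank. No peak ended past an R64 chromosome end, and R64 is the sequence behind sacCer3. The lists stopped at different chromosome positions, so peaks were ranked within the nuclear sequence all 4 reach.

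Summit height k and background b were solved from fold = (k + 1)/(b + 1) and the deposited p as a Poisson upper tail beyond k. A whole k within 0.02 resulted for 99.5% to 99.9% of peaks, and for 3.51% to 4.35% when each fold was given the p of the preceding peak. On simulated peaks 100% of 1991 heights were recovered.

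A peak belonged to a gene when it overlapped the 1000 bp upstream by at least 1 bp, and the highest peak by fold was used. Motifs were searched on both strands. Comparisons of factors used exact permutation over the 6 assignments of libraries, or the 3 pairings for summit separation. Alternatives were a 500 bp window, summits inside the window, −log10 q ranks, whole lists, lists without noncoding RNA peaks, the stronger part of each list by −log10 q, medians over genes, a replicate block and leaving out libraries. The genes, lists and tests were chosen with earlier results of these data known. Named were the 5 genes, their divergent neighbours, list genes with a Cbf1 peak in both lists (values for at most 3 per list) and the 5 genes of nearest pattern; SNR48, OSH2, HRA1, MAK16 and the tRNA gene were named after their positions were seen. Python 3.11.15 with scipy 1.17.1 was used.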

Additional observations from a re-analysis of the deposited data

How the results depend on the processing

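With 500 bp upstream, or with the summit required inside the window, Cbf1 peaks in both lists were found at 5 of 5 genes and Pho4 peaks at 3 of 5, as with the main rule. Ranking by −log10 q moved the mean fold percentile by more than the replicates' SD for Pho4 at ERG25 (94.6 to 94.0) and at LSM4 (79.1 to 74.2), and for Cbf1 at ERG25 (100 to 99.9), LSM4 (99.8 to 99.0) and DRS2 (97.9 to 97.2). Leaving out other peaks over noncoding RNA genes moved Pho4 at ERG25 to 94.4 and Cbf1 at DRS2 to 97.6, and the whole extent of each list moved Cbf1 at ERG25 to 99.97. Leaving out single libraries, the summit separation took values between -4 and 14.3 bp, reversing to -4 bp without Cbf1 replicate 2; the cause was not tested. The mean Pho4 percentile of 41.1 ran from 39.98 to 42.3, the distance to the core from -11.5 to -2.17 bp and the width from 537 to 990 bp. With the median over genes in place of the mean, distance was -9 bp, width 924 bp and separation 13 bp. Equal replicate numbers are not known to pair libraries: over 338 shared peaks their deviations correlated at 0.0995. With the replicate number as a block the differences were -6.83 bp for distance and 763 bp for width, with an exact permutation p of 0.5 in both, the smallest that 2 pairs allow. For the 5 functional lists together, the counts ranged from 10 to 18 for Cbf1 and from 8 to 17 for Pho4, out of 41. The highest Cbf1 count, 18 without Cbf1 replicate 1, stands beside 29% of all genes, and the lowest, 10 in the stronger part of each list, beside 17.3%. The highest Pho4 count, 17 without Pho4 replicate 1, stands beside 37.4% and the lowest, 8 in the stronger part, beside 20.6%. Of the single lists, 13 of 60 counts moved by over 1.5 times, all from a main count of 5 or fewer. Pho4 summits of 36 to 95 reads at RPN4 and LSM4 limit the precision of fold there.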
